A study of Mus musculus with 2 samples.

Results

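Gm14305, Rps27rt and Rpgrip1 are 3 of the 31053 genes counted in single cells of the e15.5 mouse eye cup. They were chosen by the measured values themselves: the ratio of the mutant to the control level pointed the same way in RPE-like, retinal progenitor-like and periocular mesenchyme-like cells, and that rule set a direction but no size. The control library came from Myrf fl/fl embryos and the mutant library from Rx>cre Myrf fl/fl embryos, both at e15.5, so that both genotypes carried the floxed Myrf allele and only the mutant carried the cre transgene. For each genotype 3 eye cups were pooled, with cornea, lens and optic nerve removed, dissociated in papain and captured with the 10x 3′ chemistry. Rx>cre is active in the early eye field, which forms the neural retina and the RPE, whereas periocular mesenchyme, vessels, blood and immune cells arise outside it. With 1 library per genotype there is no replicate check: genotype, embryo, sex makeup of the pool and library cannot be told apart, and every interval given here covers counting error only. The ratios in the classes named by the rule are a description of the choice, and no p-value was computed.

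The members have little in common by name or function. Gm14305 is a predicted protein-coding gene within a large array of KRAB zinc finger genes on distal mouse chromosome 2, a family of DNA-binding repressors, many of which silence transposable elements, whose members are near copies of each other. Rps27rt is an intronless copy of Rps27, the gene of a small-subunit ribosomal protein, and bears the marks of a reverse-transcribed mRNA inserted at a new place. Rpgrip1 encodes the protein that binds RPGR and anchors it in the connecting cilium of photoreceptors, the gate between inner and outer segment, and its loss causes early retinal dystrophy. Myrf, the gene deleted here, encodes a membrane-bound transcription factor of the RPE.

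In GRCm38, Gm14305 lies at chr2:176708328-176721813 on the plus strand, Rps27rt at chr9:114982366-114982739 on the minus strand and Rpgrip1 at chr14:52110704-52163546 on the plus strand. The single exon of Rps27rt, 374 bases long, falls within an intron of Osbpl10, which is read from the opposite strand. Gm14305 overlaps Zfp973 on the same strand, with 251 of its 2500 exon bases in common. The last 3133 bases of the Rpgrip1 span overlap Supt16 on the opposite strand, and 1057 exon bases are shared between them. Supt16 itself had 20698 UMIs in the control library and 21542 in the mutant library.

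The coding sequence of Rps27rt, read from the GENCODE M21 transcript and lying at chr9:114982453-114982707 on the minus strand, is shown because its letters decide how far its reads can be told from those of Rps27. Start and stop codon are in capitals.
Rps27rt: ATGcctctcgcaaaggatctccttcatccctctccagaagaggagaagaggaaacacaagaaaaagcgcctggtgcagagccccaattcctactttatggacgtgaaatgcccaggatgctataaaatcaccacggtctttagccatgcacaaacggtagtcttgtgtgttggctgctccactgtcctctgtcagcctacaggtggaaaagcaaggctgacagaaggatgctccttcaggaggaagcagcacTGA
Over these 255 bases the Rps27 coding sequence, which is spread over 4 exons at chr3:90212725-90213615, had 0 differences and 0 gaps, so both genes encode the same 84 residues. Their transcripts of 374 and 345 bases share an unbroken run of 341 bases. The Rps27rt transcript differs only after that run, in its last 33 bases, of which 31 are a terminal run of A. Reads of the 3′ chemistry fall near the end of a transcript. Of the 31-base words in the last 500 bases of the transcript, or the whole transcript where shorter, 92.7% for Rps27rt (319 of 344) also occurred in transcripts of other genes. Gm14305 shared 90.7% of its words (418 of 461) with a total of 81 other genes, most of them with Gm11007. Rpgrip1 shared 1.06% (5 of 470). Among 17537 measured genes the median share was 0 and 3.67% of genes shared more than 50% of their words. The levels of Gm14305 and Rps27rt are therefore uncertain. Reads that match several copies cannot be placed by sequence alone, and how they were counted is not given in the sources used here. By contrast, the end of the Rpgrip1 transcript examined holds few words of other genes.

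The files held 13017 control and 13880 mutant barcodes with medians of 9339 and 8702 UMIs, a UMI being 1 captured RNA molecule, and 69 barcodes occurred in both libraries. After removal of low-quality cells and doublets, 11498 and 12530 cells formed 33 clusters, of which 6 stayed unnamed and the rest fell into 15 classes named from marker genes. RPE-like cells numbered 382 in the control and 227 in the mutant, with medians of 6906 and 4181 UMIs, and the RPE-like cluster was led by Ttr, Pmel, Trpm1, Mlana and Tyr. Myrf was counted 292 times in control and 55 times in mutant RPE-like cells, or at 76.1 and 26.0 CPM (UMIs of the gene in every 1000000 UMIs of the class), a ratio of 0.342 (95% interval 0.251 to 0.457). The pools differed in sex: 4 of 4 Y-linked genes listed were higher in the mutant library and Xist, the RNA of the inactive X chromosome, was lower there at 531 against 1369 CPM. Xist UMIs without Y-linked UMIs were found in 71.6% of control cells and 24.1% of mutant cells.

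Rps27rt was the member that was higher in the mutant. The 5217 control UMIs of all kept cells stood against 11917 mutant UMIs, which are 43.6 and 96.6 CPM. Mutant over control this made 2.22 (2.15 to 2.29), and the classes lay close around it, although by choice in 3 of them. Retinal progenitor-like cells of the control held 49.5 CPM (1285 UMIs) and those of the mutant 111 CPM (4009 UMIs), a ratio of 2.25 (2.11 to 2.40). Periocular mesenchyme-like cells held 47.9 CPM (1883 UMIs) and 104 CPM (2920 UMIs), a ratio of 2.17 (2.05 to 2.30). RPE-like cells held 41.2 CPM (158 UMIs) and 93.6 CPM (198 UMIs), a ratio of 2.27 (1.84 to 2.82). Thinned to 2000 UMIs per cell, the log2 ratio in RPE-like cells was 0.35 in place of 1.19, from 27 and 19 UMIs, and did not pass 1.5-fold. It was 1.25 and 1.18 in thinned retinal progenitor-like and periocular mesenchyme-like cells.

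The level of Rps27rt itself differed between classes within a library, and the ratio differed less. The control level was 67.3 CPM and the mutant level 143 CPM in surface epithelium-like cells, whereas retinal ganglion cell-like cells had 23.4 and 51.8 CPM. Erythroid-like cells, in which most RNA is globin mRNA, had 1.97 and 4.02 CPM from 15 and 27 UMIs. Across all 15 named classes the ratio ran from 1.86 in Schwann cell precursor-like cells (28 and 56 UMIs) to 2.95 in melanocyte-like cells (26 and 49 UMIs), and the intervals of these extremes overlapped. The direction in 3 of these classes was fixed by the choice, and in the other 12 every interval lay above 1 and every ratio past 1.5-fold. Of 9309 genes with at least 20 UMIs in 10 or more classes, 1.67% were higher in every such class and 0.0537% past 1.5-fold. Rps27rt was above 1 in 22 of 22 clusters outside the classes of the rule with at least 20 UMIs of it. A UMI was present in 33% of control and 52.3% of mutant cells, and, after thinning to 2000 UMIs per cell, in 8.45% of 9342 control and 18.2% of 10302 mutant cells, shallower cells being left out.

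Gm14305 was lower in the mutant. All kept control cells together gave 2212 UMIs (18.5 CPM) and all kept mutant cells 585 (4.74 CPM), which is 0.257 of the control (0.234 to 0.281). Control retinal progenitor-like cells had 21.1 CPM (549 UMIs) and mutant ones 4.94 CPM (178 UMIs), a ratio of 0.234 (0.196 to 0.278). The level in periocular mesenchyme-like cells was 20 CPM (786 UMIs) for the control and 5.05 CPM (142 UMIs) for the mutant, a ratio of 0.253 (0.210 to 0.303). RPE-like cells had 29.7 CPM (114 UMIs) and 9.93 CPM (21 UMIs), a ratio of 0.334 (0.199 to 0.536). The difference was thus near 4-fold in the larger classes, and the RPE-like interval contains their ratios.

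Outside the 3 classes of the rule, Gm14305 was lower as well, over a wider range than Rps27rt. The smallest ratio, 0.104 (0.0318 to 0.269), was that of amacrine or horizontal cell-like cells, with 33 control and 5 mutant UMIs. Surface epithelium-like cells had the largest, 0.562 (0.342 to 0.916), with 42 and 31 UMIs and a mutant level of 16.4 CPM, above that of the other classes with at least 20 UMIs in sum. These extremes did not overlap in their intervals. The mix of mutant embryos also differed between these classes, as given below, and its part was not tested. All 9 of these classes with at least 20 UMIs lay past 1.5-fold, and so did 16 of 16 clusters outside the rule. With the 3 classes of the rule included, 0.0215% of the 9309 genes were lower past 1.5-fold in every measured class. A UMI of Gm14305 was found in 16.1% of control and 4.33% of mutant cells, with at most 7 and 4 UMIs in a cell, and after thinning in 3.66% and 0.912%. Erythroid-like cells held 3 and 0 UMIs, too few to compare.

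Rpgrip1 was also lower in the mutant, but by a ratio that differed between classes, whose mix of mutant embryos also differed, as given below. All kept cells gave 3706 control UMIs (31 CPM) and 2589 mutant UMIs (21.0 CPM), which is 0.678 of the control (0.644 to 0.713). In RPE-like cells the levels were 23.5 CPM (90 UMIs) and 9.93 CPM (21 UMIs), a ratio of 0.423 (0.25 to 0.687). Retinal progenitor-like cells held 42.9 CPM (1115 UMIs) and 25.0 CPM (899 UMIs), a ratio of 0.582 (0.532 to 0.636). The levels in periocular mesenchyme-like cells were 20.3 CPM (796 UMIs) and 10.8 CPM (304 UMIs), a ratio of 0.534 (0.467 to 0.610). The member was therefore past 1.5-fold in the classes of the rule but just short of it over all cells.

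Photoreceptor precursor-like cells, where Rpgrip1 is used, had its highest level and one of its smallest differences. Their control level was 191 CPM (442 UMIs) and their mutant level 153 CPM (522 UMIs), a ratio of 0.799 (0.702 to 0.909). A UMI of Rpgrip1 was present in 55.8% of control and 53.2% of mutant cells of that class. Thinned to 2000 UMIs, with shallower cells left out, these shares were 30.9% of 298 and 27.6% of 446 cells. In erythroid-like cells, which should lack the gene, 0.839% and 1.43% of cells held a UMI (4 and 7 UMIs in all), at medians of 16826 and 16629 UMIs per cell against 6666 and 6674 in photoreceptor precursor-like cells, and before thinning every other class stood above this background. Amacrine or horizontal cell-like cells, with 51 and 70 UMIs, had a ratio of 0.946 (0.650 to 1.39), so no difference was detectable there at this depth. Retinal ganglion cell-like cells had 28.2 and 12.1 CPM, a ratio of 0.428 (0.334 to 0.545), whose interval did not overlap that of photoreceptor precursor-like cells. The smallest ratio was 0.162 (0.0407 to 0.474), from 23 and 4 UMIs in Schwann cell precursor-like cells. Outside the classes of the rule, Rpgrip1 was below 1 in 10 of 10 classes with at least 20 UMIs, past 1.5-fold in 7 of them, and below 1 in 18 of 18 clusters. With the 3 classes of the rule included, 0.483% of the 9309 genes were lower in every measured class.

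**Figure D1:**
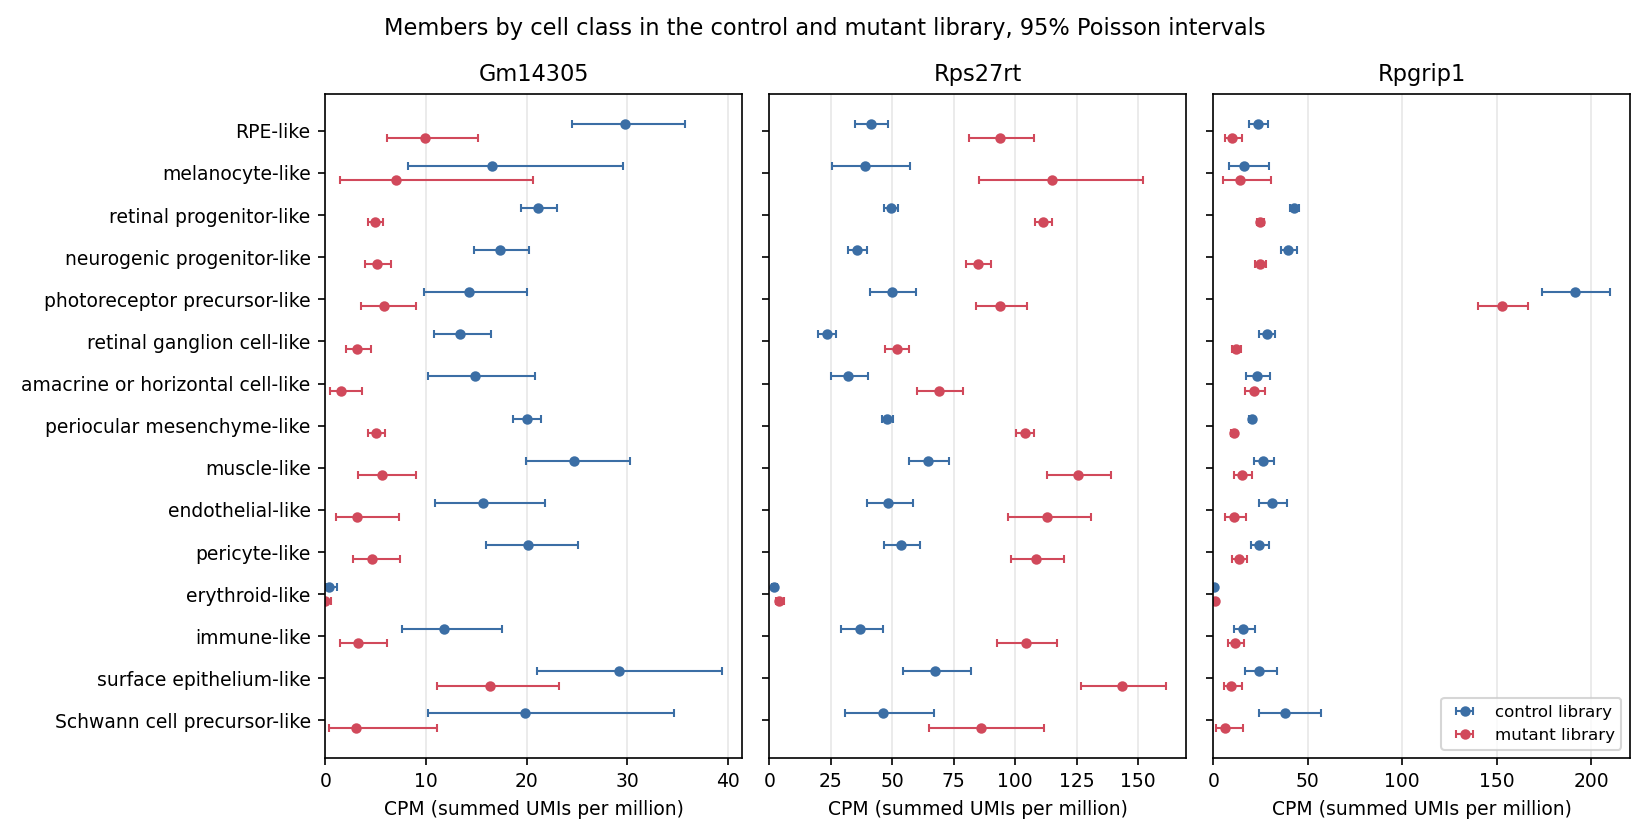
Level of each member by cell class, in CPM on a linear axis from 0, with 1 point per library (control and mutant) and bars for the 95% Poisson interval of counting error. Rps27rt lies higher in the mutant in every class shown and Gm14305 lower, while Rpgrip1 is highest in photoreceptor precursor-like cells at 191 and 153 CPM. In the classes of the rule, the direction of each member was fixed by the choice.

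**Figure D2:**
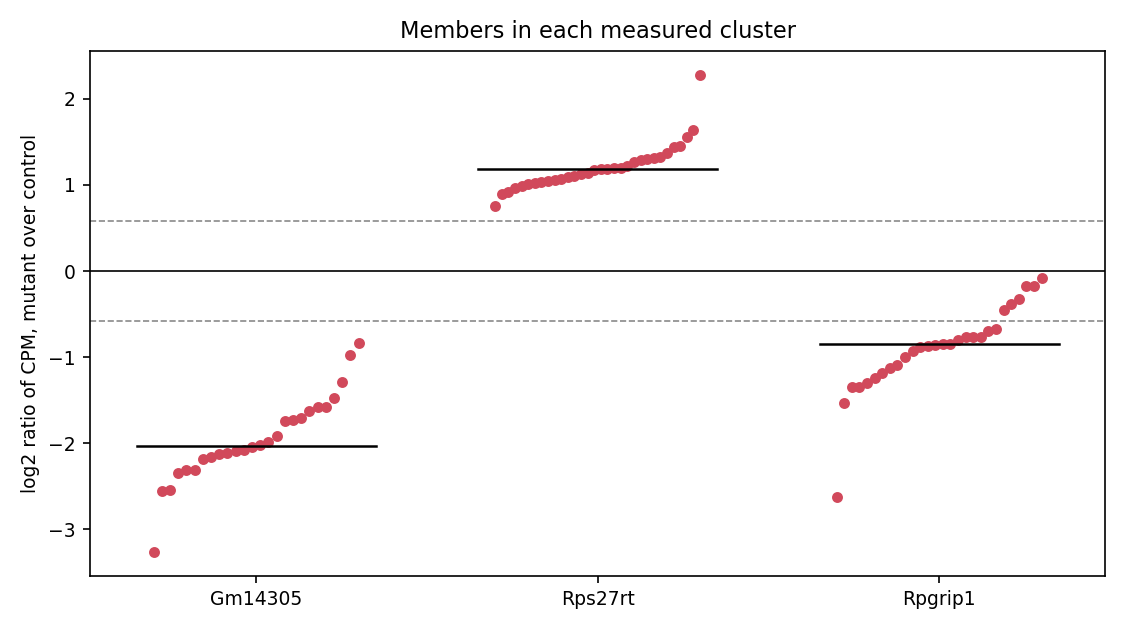
Log2 ratio of mutant to control CPM in each cluster with at least 20 UMIs of the member, with 1 point per cluster in rising order, a black bar at the median and dashed lines at 1.5-fold. The 26 Gm14305 and 28 Rpgrip1 points lie below 0 and the 32 Rps27rt points above 0. These points include clusters of the classes of the rule, in which the direction of the class was fixed by the choice. Outside those classes, 16 of 16 Gm14305 and 18 of 18 Rpgrip1 points lie below 0. For Rps27rt, 22 of 22 lie above 0 there.

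How rare such a shift is was read against all genes. Of 10825 genes with at least 20 UMIs in each of the 3 classes of the rule, 21 (0.194%) were higher and 17 (0.157%) lower in the mutant past 1.5-fold in all 3, with the members among them by choice. In single classes such differences were more frequent: 5.58% of genes were higher and 7.86% lower past 1.5-fold in RPE-like cells, 3.34% and 2.30% in retinal progenitor-like cells, 5.82% and 3.01% in periocular mesenchyme-like cells, and 4.79% and 4.66% over all kept cells. Ordered by their smallest difference, Rps27rt stood at rank 6 of 21, Gm14305 at 7 of 17 and Rpgrip1 at 15 of 17. Next to Rpgrip1 in the lower group were Myrf and Aph1c, just inside the limit. The 17 lower genes also include Xist and its antisense Tsix, and the globin genes Hba-x and Hbb-y. Gm14296, Zfp968, Gm4631, Gm14295, Gm14419, Gm6710 and Gm14418, of the same array as Gm14305, are among them too. Of the 21 higher genes, 5 lie on the Y chromosome. Among the 9309 genes with at least 20 UMIs in 10 or more classes, 5 (0.0537%) were higher past 1.5-fold in every such class, namely Ddx3y, Eif2s3y, Kdm5d and Uty, which are Y-linked, and Rps27rt. In the same way 2 (0.0215%) were lower, Gm14305 and Gm6710. Rps27rt was therefore the only autosomal gene in the higher group, and the 2 genes of the lower group lie in the same zinc finger array. A same direction of any size in every measured class was less rare, with 155 genes (1.67%) higher and 45 (0.483%) lower.

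The position of a member was not used by the rule. For each member, the 10 nearest genes on either side with at least 50 UMIs were taken. Of the 20 neighbours of Gm14305, 19 were lower in the mutant and 17 past 1.5-fold, with a median log2 ratio of -1.79, beside 4.66% of all 17558 genes lower past 1.5-fold over all kept cells. These neighbours span chr2:175166255-177840336. Gm14296, a zinc finger gene beginning 171 kb beyond Gm14305, had 13.8 CPM (1651 UMIs) among control and 2.99 CPM (369 UMIs) among mutant cells, a log2 ratio of -2.21. Gm6710, on the other side, had 16.4 CPM (1961 UMIs) and 6.71 CPM (828 UMIs). Gm4631 had 998 and 263 UMIs, Gm14295 832 and 248, and Zfp968 462 and 108. The exceptions were Gm14412 (53 and 50 UMIs), Gm14322 (242 and 237) and Gm14325 (376 and 418), and the last 2 lie farthest out on the distal side. Gm14305 thus sat in a stretch of genes that were lower in the mutant, with the outermost distal ones near equal.

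A wider list of zinc finger genes of this array gave like values. It includes Gm14305 and neighbours already counted, so it is no separate support. Of 29 listed genes with at least 20 UMIs, 20 were lower past 1.5-fold over all kept cells and 0 were higher, with a median log2 ratio of -1.70, beside a median of 0.01 over all genes. In RPE-like cells, a class of the rule, 9 of 13 such genes were lower and 2 higher past it, beside 7.86% and 5.58% of all genes. Gm14305 is among the 9, in its direction by choice. Listed genes beyond the stretch were near equal, among them Zfp931 with 2595 and 2552 UMIs and Gm14327 with 609 and 762. Reads of these genes are hard to separate: the median listed gene shared 86.8% of its 31-base words with other genes, and 25 of the 29 shared more than 50%. The count of lower genes is therefore not a count of separate measurements.

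Most neighbours of Rps27rt and Rpgrip1 did not pass 1.5-fold. Over all genes, 4.79% were higher and 4.66% lower past it. Of the 20 neighbours of Rps27rt, 0 were higher past 1.5-fold and 1, Tmppe (45 and 30 UMIs), was lower past it, and the median log2 ratio was -0.08. The neighbours of Rpgrip1 had a median of 0.04. Of 20, 2, the odorant receptor genes Olfr1508 (33 and 20 UMIs) and Olfr1507 (31 and 20 UMIs), were lower past 1.5-fold, and 3 were higher past it, namely Rnase6 (34 and 157 UMIs, a log2 ratio of 2.16), Tmem253 (32 and 55 UMIs) and Trac (77 and 141 UMIs). Hnrnpc, the nearest gene before Rpgrip1, had 47278 and 47559 UMIs, and the overlapping Supt16 a log2 ratio of 0.01.

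**Figure D3:**
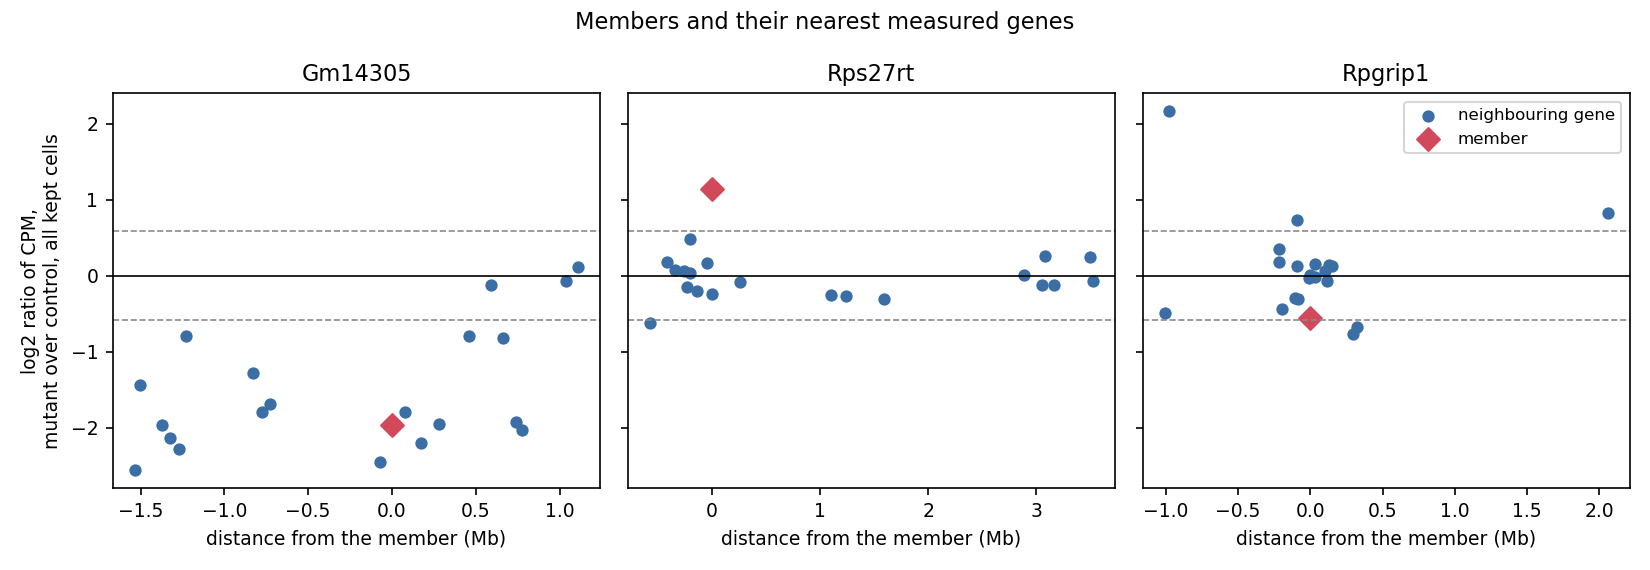
Log2 ratio of mutant to control CPM over all kept cells for each member and its 10 nearest measured genes on either side, against distance from the member in Mb, with dashed lines at 1.5-fold. Around Gm14305, 17 of 20 neighbours lie past the lower line, while around Rps27rt 19 and around Rpgrip1 15 of 20 lie between the lines.

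Rps27rt was compared with its parent gene and with the ribosomal proteins. Rps27 was counted 230191 times among control and 292562 times among mutant UMIs, at 1924 and 2372 CPM, with a ratio of 1.23 (1.23 to 1.24). Rps27rt made up 2.22% (exact binomial interval 2.16 to 2.28) of the UMIs of both genes in the control and 3.91% (3.85 to 3.98) in the mutant. The share was higher in the mutant in 15 of 15 classes, running from 1.81% to 3.32% in the control and from 3.23% to 4.52% in the mutant. Summed over both genes, the ratio was 1.26 (1.25 to 1.26). So the UMIs assigned to Rps27rt differed far more than the sum of the pair.

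Most other ribosomal protein genes and copies differed less than Rps27rt. Rps27l, a relative that arose by gene duplication, stood at 364 and 471 CPM, a ratio of 1.29, and Rps27a, which encodes a ubiquitin fusion protein, had a ratio of 1.01. Of 80 genes of cytosolic ribosomal proteins, 0 passed 1.5-fold in either direction over all kept cells, beside 4.79% of all genes higher and 4.66% lower. The 80 had a median log2 ratio of 0.06 and a highest value of 0.53 for Rps28. Of 9 genes named as ribosomal protein pseudogenes, 7 had at least 20 UMIs and 0 of these passed over all kept cells, with a median of 0.23. Within classes, 2 of 5 such pseudogenes were higher past 1.5-fold in RPE-like cells, 2 of 6 in retinal progenitor-like cells and 2 of 5 in photoreceptor precursor-like cells, beside 5.58%, 3.34% and 4.68% of all genes, and 0 were lower past it. In periocular mesenchyme-like cells, 0 of 6 passed it in either direction, with a median of 0.18. Gm11808 and Gm2000, short genes that share 94.7% and 90.4% of their 31-base words with other genes, were also higher past 1.5-fold in all 3 classes of the rule. Over all kept cells, Gm11808 stood at 60.8 and 95.8 CPM and Gm2000 at 15 and 24.1 CPM, log2 ratios of 0.65 and 0.69 beside 1.15 for Rps27rt.

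Rpgrip1 was compared with the proteins it works beside. The list of 24 genes of the ciliary gate in the files, all with at least 20 UMIs, held 0 genes past 1.5-fold over all kept cells. Of all genes, 4.79% were higher and 4.66% lower past it, so few of 24 would pass at those shares. The 24 had a median log2 ratio of 0.04 and a range from -0.11 to 0.36. Rpgr, whose protein RPGRIP1 anchors, had 2439 and 2744 UMIs, or 20.4 and 22.3 CPM. Rpgrip1l, the closest paralogue and a part of the transition zone of most cilia, was at 17.6 and 17.7 CPM. Cep290, a transition zone scaffold, was at 28.0 and 29.9 CPM, and Spata7, which recruits RPGRIP1 to the connecting cilium, at 18.1 and 19.8 CPM. Over all kept cells, none of the 24 differed by as much as Rpgrip1, which was itself chosen by its values. In RPE-like cells, 2 of the 24 were higher and 1 lower past 1.5-fold, beside 5.58% and 7.86% of all genes. In photoreceptor precursor-like cells, 2 of 21 were higher and 1 lower past it, beside 4.68% and 5.45%, and these 3 differed by more than Rpgrip1 did there, at a log2 ratio of -0.32.

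Photoreceptor genes moved differently from Rpgrip1 in the pooled cells. Of 7 genes of photoreceptor precursors, 7 were higher in the mutant over all kept cells, with a median log2 ratio of 0.43, and 1 of the 7, the cone transducin subunit gene Gngt2, passed 1.5-fold at 24.2 and 52.4 CPM, beside 4.79% of all genes. The mutant library also held more photoreceptor precursor-like cells, 451 against 303. Within photoreceptor precursor-like cells the median of the list was -0.01, and 1 of the 7 was higher past 1.5-fold, at a log2 ratio of 0.79, beside 4.68% of all genes. In periocular mesenchyme-like cells, 5 of the 7 were higher past 1.5-fold, beside 5.82% of all genes, while Rpgrip1 was lower there. In RPE-like cells, 3 of the 7 had at least 20 UMIs, all 3 were lower as Rpgrip1 was, and 1 passed 1.5-fold, beside 7.86% of all genes. The part of free photoreceptor RNA in the Rpgrip1 level of other classes was not tested.

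Xist and Y-linked UMIs separate some of the embryos within the mutant pool, and this split was not used by the rule. In the mutant library, 3016 kept cells had Xist UMIs alone, 4813 had Y-linked UMIs alone, 413 had both and 4288 had neither, and the first 2 groups had medians of 10779 and 10568 UMIs per cell. In the control library, 8238 cells had Xist alone and 1 had Y-linked UMIs alone. Cells of the mutant pool with Xist and with Y-linked UMIs come from different embryos, so that sex and embryo cannot be told apart.

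Rps27rt did not follow this split. Its level was 101 CPM (3665 UMIs) in mutant cells with Xist alone, 97.8 CPM (5600 UMIs) in mutant cells with Y-linked UMIs alone and 45.2 CPM (4801 UMIs) in control cells with Xist alone. The ratio of Y-linked to Xist cells within the mutant was 0.968 (0.928 to 1.01). In 14 classes it ran from 0.673 to 1.28, and 1 interval, that of endothelial-like cells, lay below 1. Each mutant fraction was about 2-fold above the control, at 2.24 for Xist cells and 2.16 for Y-linked cells. Since its level was near equal, its UMIs show that the mix of the fractions differed between classes. Mutant Xist and Y-linked cells gave 171 and 62 UMIs in surface epithelium-like cells, but 57 and 114 in amacrine or horizontal cell-like cells. In RPE-like cells they gave 76 and 64. The part of this mix in the class ratios of Gm14305 and Rpgrip1 was not tested.

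Gm14305 was unequal between the fractions of the mutant pool. It stood at 10.8 CPM (392 UMIs) in mutant Xist cells, 1.68 CPM (96 UMIs) in mutant Y-linked cells and 19.5 CPM (2076 UMIs) in control Xist cells. Y-linked cells thus had 0.155 (0.123 to 0.194) of the level of Xist cells in the same library, and 5.17% of the 16265 genes measured in this split were lower past 1.5-fold. The ratio was below 1 in 6 of 6 classes with enough UMIs, from 0.0862 in periocular mesenchyme-like cells to 0.297 in surface epithelium-like cells. Of all genes, 2.56% were lower past 1.5-fold in this split in retinal progenitor-like cells and 2.74% in periocular mesenchyme-like cells. Among Xist cells alone, mutant to control was 0.553 (0.495 to 0.616) over all kept cells, but 1.16 (0.605 to 2.14) in photoreceptor precursor-like cells, from 17 mutant and 33 control UMIs.

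Rpgrip1 was unequal in the other direction. Mutant Xist cells held 7.96 CPM (289 UMIs), mutant Y-linked cells 28.9 CPM (1656 UMIs) and control Xist cells 32.8 CPM (3490 UMIs). The ratio of Y-linked to Xist cells was 3.63 (3.20 to 4.13), with 3.19% of genes higher past 1.5-fold in this split. Mutant Y-linked cells were near the control at 0.880 (0.830 to 0.934), and mutant Xist cells far below it at 0.243 (0.214 to 0.274). Pooled over classes, the mutant level was therefore a mixture of a fraction near the control and a fraction well below it, but classes differed. The Y-linked fraction was at 0.725 (0.656 to 0.802) of the control in retinal progenitor-like cells, 0.570 (0.436 to 0.740) in retinal ganglion cell-like cells and 0.486 (0.203 to 1.00) in RPE-like cells, the last from 8 mutant UMIs. In neurogenic progenitor-like cells it was at 0.9 (0.760 to 1.06), in amacrine or horizontal cell-like cells at 1.17 (0.770 to 1.77) and in immune-like cells at 1.34 (0.697 to 2.55), whose intervals include 1.

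The Rpgrip1 split was seen in neural and other cells, and least in photoreceptor precursor-like cells. Retinal progenitor-like cells held 5.69 CPM in mutant Xist cells (57 UMIs), 31.2 CPM in mutant Y-linked cells (606 UMIs) and 43.1 CPM in control Xist cells. Periocular mesenchyme-like cells held 3.31 CPM (36 UMIs), 17.1 CPM (223 UMIs) and 20.2 CPM in the same order. In retinal ganglion cell-like cells the values were 2.45 CPM (6 UMIs), 16.2 CPM (85 UMIs) and 28.5 CPM. Photoreceptor precursor-like cells held 128 CPM (131 UMIs), 156 CPM (281 UMIs) and 193 CPM, and their ratio of Y-linked to Xist cells was 1.21 (0.982 to 1.5). Its interval lay wholly below those of retinal progenitor-like cells, 5.49 (4.18 to 7.33), and periocular mesenchyme-like cells, 5.16 (3.62 to 7.56). In all, the ratio was above 1 in 9 of 9 classes, and 8 intervals lay above 1. Of all genes, 2.74% were higher past 1.5-fold in this split in retinal progenitor-like cells and 4.24% in periocular mesenchyme-like cells.

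**Figure D4:**
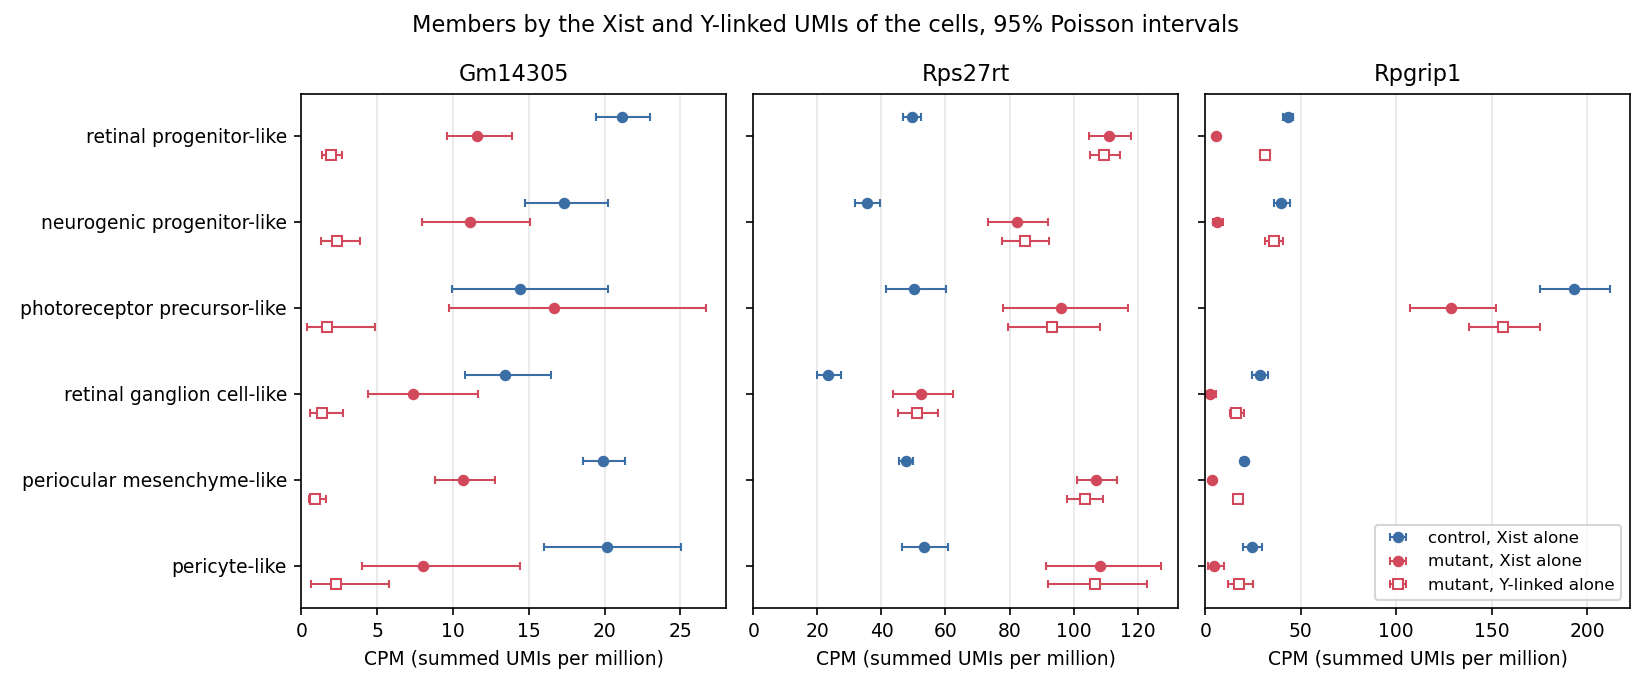
Level of each member by cell class, in CPM with 95% Poisson intervals, in control cells with Xist alone, mutant cells with Xist alone and mutant cells with Y-linked UMIs alone. The intervals of both mutant fractions overlap for Rps27rt in the 6 classes shown, while over all cells Gm14305 is lower in the Y-linked fraction (1.68 against 10.8 CPM) and Rpgrip1 in the Xist fraction (7.96 against 28.9 CPM).

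Most neighbours of Gm14305 divided in the same direction as it did, while those of Rpgrip1 were mixed and most of those of Rps27rt were near equal. Over all genes, 3.19% were higher and 5.17% lower past 1.5-fold in this split. Between Y-linked and Xist cells of the mutant, 12 of 17 measured neighbours of Gm14305 were lower past 1.5-fold and 1 was higher, with a median log2 ratio of -2.26. Gm14296 was counted 323 times in mutant Xist cells (8.90 CPM) and 1 time in mutant Y-linked cells (0.0175 CPM). Gm4724 and Gm14403 were at 0 UMIs in Y-linked cells. For Rpgrip1, 4 of 18 neighbours were higher past 1.5-fold and 2 lower, with a median of 0.06, so that the shares in both directions were above those over all genes, in part from genes with few UMIs. For Rps27rt, 2 of 19, Tmppe and Eomes, were higher past 1.5-fold and 0 lower, with a median of -0.01.

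By rule, the 3 genes with the profile most like each member were taken, over 24 points made of 12 classes in 2 libraries, which share library and depth. Pearson's r on log2(CPM + 1) among 12497 genes is given as a description. The difference between libraries, whose direction chose the members, is part of each profile. Genes of like direction can therefore be favoured. Gm14305 was most like Gm14296 (0.942), Gm6710 (0.933) and Gm4631 (0.897), all in the same array. Rps27rt was most like Gm11808 (0.979), Rps28 (0.967) and Wdr89 (0.966), which were also higher in the mutant over all kept cells, with log2 ratios of 0.65, 0.53 and 0.62. Rpgrip1 was most like Lcorl (0.923), Intu (0.919) and Zfat (0.917), but these had log2 ratios of mutant to control of 0.17, 0.08 and 0.10 over all kept cells, so they shared its pattern over classes and not its difference between libraries.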

How the data were processed

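Single cells of e15.5 eye cups were sequenced in 1 control and 1 mutant library, each a pool of 3. The authors deposited whole-number UMI counts per gene and barcode, made with Cell Ranger 7.1.0 on mm10 and handled with Seurat 4.1.1, as the submitters' processing notes and the study's methods give them. The headers of the deposited matrices name software version 3.1.0 instead. Whether intronic reads were counted can depend on that version and is not given in the sources used here, so UMIs of multi-exon genes such as Rpgrip1 may or may not include them. Groups came from the labels. Barcodes with at least 200 genes and up to 15% mitochondrial UMIs were kept, predicted doublets were removed with Scrublet (control 444, mutant 488), and cells were clustered with scanpy 1.11.5 (2000 variable genes, 30 components, 15 neighbours, Leiden resolution 1) without batch correction. Clusters were named from marker lists.

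UMIs were summed per class and library and divided by the class total. Intervals are 95%: exact Poisson for CPM, exact conditional binomial for ratios and Clopper-Pearson for shares. A gene was measured where it had at least 20 UMIs over both libraries, and the limit for 0 UMIs was set at 3 counts. Ratios were checked on simulated counts. These were Poisson draws around control sums, as the intervals assume, so the check does not cover differences between embryos or libraries, or shared reads. Gene positions, transcripts and the printed sequence came from GENCODE M21 (GRCm38), in which 30934 of the 31053 genes were matched by identifier. Besides the members and Myrf, genes were named by fixed rules: listed genes with at least 50 UMIs, the 10 nearest neighbours on either side, the 3 most alike profiles and the leading genes shifted in the 3 classes. Tmppe, Eomes, Rnase6, Tmem253, Trac, the nearest or overlapping genes of the members and the neighbours that did not differ were named after their values were seen. Members and lists were chosen with earlier results of these data known. Python 3.11.15, numpy 2.4.6, pandas 2.3.3 and scipy 1.17.1 were used.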

Additional observations from a re-analysis of the deposited data

How the results depend on the processing

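Each value is a log2 ratio of mutant to control CPM, whose main values over all kept, RPE-like, retinal progenitor-like and periocular mesenchyme-like cells were -1.96, -1.58, -2.10 and -1.98 for Gm14305, 1.15, 1.19, 1.17 and 1.12 for Rps27rt, and -0.56, -1.24, -0.78 and -0.90 for Rpgrip1. Of 151 values under alternatives, 118 stayed inside the main value's own counting interval, 33 did not and 0 changed sign. The cause of these moves was not tested. The members were chosen for their direction in 3 of these groups of cells, and the alternatives use the same UMIs. That no sign changed is therefore no separate support. With a mitochondrial share of up to 5%, Rps27rt was 1.2 over all kept and 1.21 in periocular mesenchyme-like cells, Rpgrip1 -0.67 over all kept cells and Gm14305 -3.36 in RPE-like cells, from 29 and 2 UMIs. In cells of up to 2000 UMIs, few counts remained: Gm14305 was -1.37 over all kept and -2.33 in RPE-like cells, Rps27rt 1.24, 2.05 in RPE-like and 1.38 in retinal progenitor-like cells, and Rpgrip1 -0.13 and -1.21 in retinal progenitor-like cells. In cells of up to 20000 UMIs, Gm14305 was -2.38 in RPE-like cells. Thinned to 2000 UMIs per cell, Rps27rt was 1.2 over all kept and 0.35 in RPE-like cells (27 and 19 UMIs), and Gm14305 -2.60 in RPE-like (11 and 1 UMIs) and -1.46 in periocular mesenchyme-like cells. As a mean over cells, Rpgrip1 was -0.41 over all kept cells and Rps27rt 1.57 in RPE-like cells. With Xist cells alone in both libraries, Gm14305 was -0.85, -0.86, -0.87 and -0.90, and Rpgrip1 -2.04, -3.24, -2.92 and -2.61, in the order of cells above. In an alternative chosen after seeing the data, mutant Y-linked cells against control Xist cells, Gm14305 was -3.54, -2.77, -3.43 and -4.44, and Rpgrip1 was -0.18, -1.04, -0.46 and -0.25. The counts of 21 higher and 17 lower genes in the 3 classes became 12 and 11 with a minimum of 50 UMIs and 7 and 11 at a fold of 2, where Rpgrip1 was not among them, and 8 and 15 with Xist cells alone. Without the barcodes that occur in both libraries, also chosen after seeing the data, they stayed at 21 and 17. Some alternatives left too few UMIs for a value. No paired analysis was possible because each genotype had 1 library.

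Each ratio compares 2 libraries and not 2 genotypes, since no second library of either was analysed here. RPE-like cells held 21 mutant UMIs each of Gm14305 and Rpgrip1, and some other classes fewer, which limits precision there. Gm14305 and Rps27rt share most of their 3′ sequence with copies, so their levels depend on how reads that match several genes were treated. Cells without Xist or Y-linked UMIs, 34.2% of the mutant library, had a median of 2486 UMIs and entered no fraction.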

Other observations

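Besides Gm14305 and Rpgrip1, further genes were unequal between the Xist and Y-linked fractions of the mutant pool. Of 11617 autosomal genes measured in both retinal progenitor-like and periocular mesenchyme-like cells, 38 (0.327%) were higher and 29 (0.25%) lower in Y-linked cells past 1.5-fold in both classes, counts that include Rpgrip1 as higher and Gm14305 as lower. The zinc finger array held 6 of the 29, Gm14305 among them. Over all kept cells, 5 of these genes were higher and 14 lower past 2-fold, both members included, but 2 of the 14, Trpm1 and Pcp4, were higher in both classes. On chromosome 14, apart from Rpgrip1, of 426 genes tested 5 (1.17%) were higher (Gm3636, Cadps, Otx2, Gm26782 and Ccdc122) and 4 (0.939%) lower (Gm3373, Gm3453, Gm3558 and Tnfrsf10b). Gm26782, an antisense RNA gene 1.24 Mb before Rpgrip1, stood at 3.39 CPM (123 UMIs) in mutant Xist cells, 9.44 CPM (541 UMIs) in mutant Y-linked cells and 9.69 CPM (1030 UMIs) in control Xist cells. Antisense counts depend on how strand was counted, which was not tested. Gm26782, the nearest of them to Rpgrip1, the others on chromosome 14, Trpm1 and Pcp4 were named after their values were seen.

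Genes known to differ between inbred strains were looked at as a fixed list of 3. Nnt, a mitochondrial transhydrogenase gene that is truncated in a common strain, had 996 and 1035 UMIs in the control and mutant libraries. Glo1, which lies in a duplication of some strains, had 33098 and 32686 UMIs, and Apobec3, a restriction factor gene, had 371 and 482. None of the 3 passed 1.5-fold over all kept cells, beside 4.79% of all genes higher and 4.66% lower. The log2 ratios of the 3 were 0.01, -0.06 and 0.33.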
